A study of Mus musculus with 12 samples.

Results

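The genes described here code for the second stretch of the mitochondrial respiratory chain and for ATP synthase, measured by RNA sequencing in murine bone marrow-derived macrophages (BMMs). They were found by symbol, as the Uqcr genes, Cyc1, Cycs, the Cox subunit and numbered Cox assembly genes, and the Atp5 genes, without names that mark a pseudogene. The rule gave 54 of the 38887 genes in the library tables, and all 54 had a row there. By role, 9 code for complex III subunits, 1 for cytochrome c, 17 for complex IV subunits and their tissue forms, 1 for the supercomplex factor Cox7a2l, 9 for complex IV assembly factors, 5 for the F1 head of ATP synthase and 12 for its stalk and membrane part.

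The 12 libraries formed 4 groups of 3. WT macrophages came from littermates of the knockout mice that had no floxed Igf2bp2 allele. Such controls could carry or lack Cre, and which held for the WT mice sequenced is not given. KO macrophages came from mice with a deletion of Igf2bp2 exons 4 and 5, in which Cre was expressed from the Lyz2 locus. The study places this deletion mainly in macrophages, neutrophils and monocytes, and states that the Cre line is not wholly specific to myeloid cells. Igf2bp2 codes for an RNA-binding protein. The mice were 3 to 4 months old. All marrow cells had been differentiated for 6 days with 50 ng/ml M-CSF, and each genotype was left untreated (M0) or received 20 ng/ml IL-4 for 8 h (M2). The libraries of a group came from 3 mice.

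Complex III, the cytochrome bc1 complex, passes electrons from ubiquinol to cytochrome c and pumps protons. Complex IV, cytochrome c oxidase, passes them on to oxygen, and ATP synthase lets the protons flow back through a ring of c subunits to drive ATP formation in its F1 head. Macrophages activated with IL-4 are known to rely on oxidative phosphorylation. Most subunits are encoded in the nucleus, while the catalytic core of complex IV, cytochrome b and 2 membrane subunits of ATP synthase are encoded in mitochondrial DNA. Symbols were known for 21000 genes only, and 0 of those found in the library tables had an mt- symbol. Genes without a symbol were not searched, and the mitochondrially encoded subunits were not analysed here.

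Each library held between 20011792 and 39632770 expected counts, which are read counts shared out by a model where a read fits several genes. The WT M2 libraries were the shallowest, at up to 22744704 counts, and the KO M2 libraries held 27347077 to 39632770. Levels compared between genes are given as TPM, which is scaled by transcript length and library total, and values set against a fold change are TMM-normalised CPM, which is scaled by library total and a TMM factor per library, without length. Changes were tested with edgeR's quasi-likelihood test across 12846 genes, and a change was called at an adjusted p under 0.05 (Benjamini-Hochberg). The 6 macrophage markers were present in every group, with summed TPM from 2996 to 3860.1. The IL-4 response genes summed to 60.7 to 113 TPM in untreated libraries and to 6315 to 8018 TPM after IL-4. Lyz2, the site of the Cre insertion, was at 8463 ± 1845 CPM in WT M0 and at 26.8 ± 5.79 CPM in KO M0 (SD, n = 3). Igf2bp2 itself was counted over the whole gene, at 76.5 to 118 CPM in WT M0 and 178 to 233 CPM in WT M2, and at 84.9 to 95.9 CPM in KO M0 and 129 to 146 CPM in KO M2. A gene count of this kind does not separate the deleted exons. All 5 stromal markers together summed to 10.9 to 22.8 TPM in WT and 3.18 to 12.6 TPM in KO libraries, and the 8 neutrophil markers to 13.1 to 56 TPM in WT and 12.8 to 18.4 TPM in KO, with Ly6g at 0 throughout. The T and B cell, mast cell and erythroid lists stayed at or below 0.32 TPM. The part of these other cells in the results was not tested. In such bulk samples, fewer cells of a type and less RNA per cell cannot be told apart.

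Together the 54 genes made up 1.38% of all TPM in WT M0 and 1.37% in WT M2, and 1.34% in KO M0 and 1.4% in KO M2. Their summed level was 13846 ± 448 TPM in WT M0 and 13676 ± 96.8 TPM in WT M2, and 13437 ± 112 TPM in KO M0 and 13978 ± 721 TPM in KO M2 (SD, n = 3). In TPM the groups overlapped, since KO M2 alone spanned 13321 to 14749.8 TPM, and its first library was the highest of all 12. In CPM the KO sums did not overlap between M0 (5549 to 5599 CPM) and M2 (5856 to 6631 CPM). With IL-4 in WT cells the summed level of complex IV differed by −1.4% in TPM and 2.7% in CPM, and that of ATP synthase by −1.6% and 7.1%. ATP synthase took the largest part of the sum, with 6594 ± 189.9 TPM in WT M0, ahead of complex IV with 4324 ± 158 TPM and complex III with 2016 ± 70.2 TPM. The 9 complex IV assembly factors summed to 483 ± 18.6 TPM in the same libraries.

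Levels per length (mean TPM over the 12 libraries) differed more between genes than between groups. In complex III, Uqcrq, a small subunit, had the highest level with 311 TPM, and Uqcrfs1, the Rieske iron-sulphur protein, had the lowest with 111 TPM. Cytochrome c itself, from Cycs, stood at 185 TPM. In complex IV, Cox4i1, the ubiquitous form of subunit 4, led with 885 TPM, and the other ubiquitous subunits followed down to Cox7a2 with 218 TPM. Cox7a2l, which helps to join complexes III and IV into supercomplexes, stood at 223 TPM. Among assembly factors, the copper chaperone Cox17 led with 217 TPM, and Cox11, which delivers copper to subunit 1, was lowest with 14.1 TPM. Atp5b, the catalytic beta subunit of F1, had the highest level of all members with 1092 TPM, and Atp5d, the delta subunit of the central stalk, had the lowest level in F1 with 235 TPM. In the stalk and membrane part Atp5g3, a gene for the c-ring subunit, led with 583 TPM and Atp5l, for subunit g, was lowest with 99.7 TPM, a level that depends on how its reads were divided with the copy Gm10221.

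**Figure D1:**
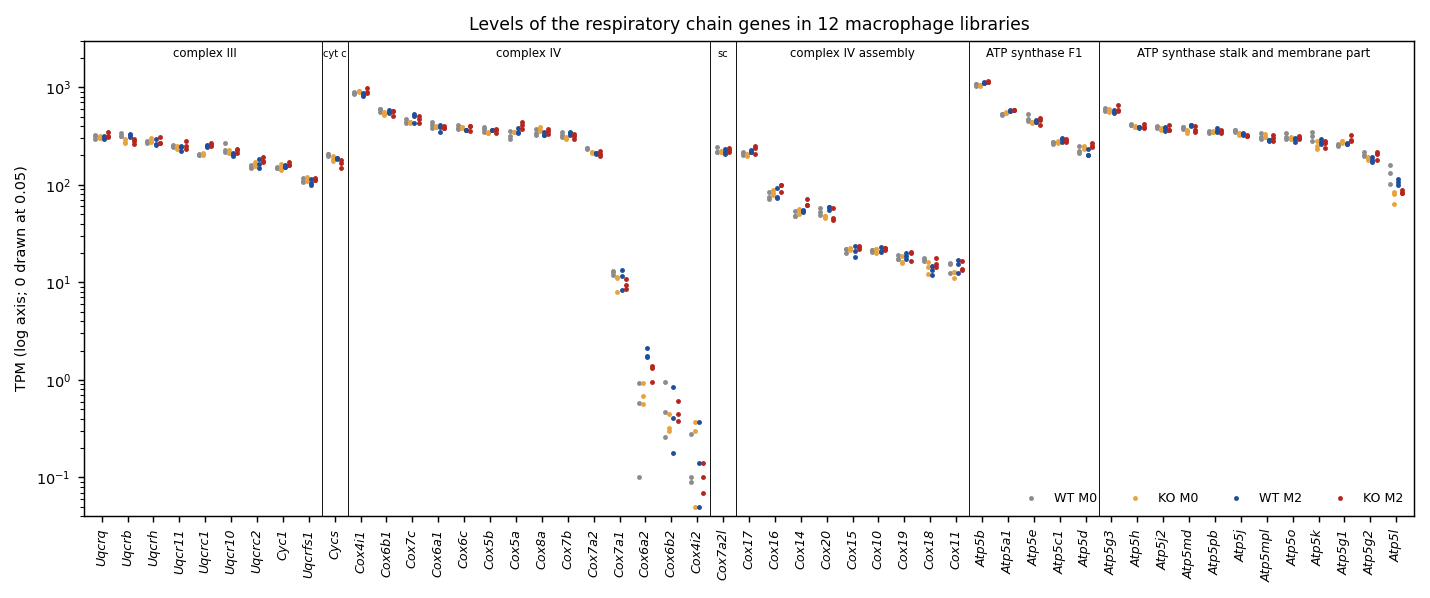
TPM of those of the 54 genes that were detected in any of the 12 libraries (log axis, with 0 drawn at 0.05), ordered by role, with 1 point per library in the colour of its group. Cox7b2, Cox8b and Cox8c, at 0 throughout, are not drawn. The ubiquitous subunits lie above 100 TPM in nearly every library, the assembly factors other than Cox17 mostly below them. Cox4i2 and Cox6b2, tissue-restricted forms that were not tested, lie at or near 0.

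The 5 genes that did not pass the filter on low counts were all tissue-restricted forms of complex IV subunits. Cox4i2, the hypoxia and lung form, had at most 5 counts in any library and Cox6b2, a testis form, had 1 to 5. Cox7b2, Cox8b and Cox8c were at 0 counts in all 12 libraries, which allows up to 3 counts each, or 0.076 to 0.15 CPM depending on the library (counting error only). Of each of these sets the ubiquitous gene, Cox4i1, Cox6b1, Cox7b or Cox8a, was the one detected at high level. Cox6a2, the heart and muscle form of subunit 6a, passed the filter through the IL-4 libraries only, with at most 17 counts in a library, and made up 0.134 ± 0.111% of the summed Cox6a1 and Cox6a2 TPM in WT M0 and 0.485 ± 0.0348% in WT M2, against 0.187 ± 0.05% in KO M0 and 0.314 ± 0.0533% in KO M2. Cox7a1, another muscle form, was a clearer second isoform, with 12.9, 13.1 and 11.9 TPM in WT M0 and 11.5, 13.3 and 8.41 TPM in WT M2. Its KO values were 11.3, 8.01 and 11.1 TPM untreated and 9.3, 8.54 and 10.8 TPM with IL-4. Its share of the summed Cox7a1 and Cox7a2 TPM lay between 4.38% and 5.1% in the group means. In M0 every KO library lay below every WT library and the other groups overlapped. Cox7a1 was not called in any comparison (M0 log2 fold change −0.30 ± 0.20, adjusted p = 0.381, edgeR).

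The c subunit of the ATP synthase ring is made from 3 genes, whose mature proteins are the same while their import sequences differ. Atp5g3 gave 55.9 ± 0.327% of the summed Atp5g TPM in WT M0 and 55.8 ± 0.371% in WT M2, and 55.6 ± 0.494% in KO M0 and 54.5 ± 0.98% in KO M2. Atp5g1 gave 24.3 ± 0.468%, 26.3 ± 0.472%, 26.6 ± 0.758% and 27.2 ± 0.439% in the same order, so that all 3 WT M0 libraries lay below the libraries of the other groups. Atp5g2 gave the rest, from 19.7 ± 0.297% in WT M0 down to 17.8 ± 0.267% in KO M0. Over 24 exact two-sided permutation tests of isoform shares, the smallest p that 3 libraries against 3 can give is 0.1, and no adjusted p was below 0.267. The last 90 coding bases of the 3 transcripts are shown because reads from this shared part must be told apart by single bases. Capitals mark bases that differ from Atp5g3, 17 in Atp5g1 and 23 in Atp5g2 (GENCODE M21, GRCm38, coding strand, 5′ to 3′).
Atp5g1: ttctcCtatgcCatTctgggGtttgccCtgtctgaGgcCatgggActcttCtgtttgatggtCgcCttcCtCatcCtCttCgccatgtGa
Atp5g2: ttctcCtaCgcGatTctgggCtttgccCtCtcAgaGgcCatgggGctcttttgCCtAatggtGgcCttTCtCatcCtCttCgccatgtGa
Atp5g3: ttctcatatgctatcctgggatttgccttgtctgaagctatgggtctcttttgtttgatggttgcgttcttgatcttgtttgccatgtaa

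Over the last 228 coding bases, Atp5g1 and Atp5g2 were identical at 85.1% of positions, Atp5g1 and Atp5g3 at 79.8% and Atp5g2 and Atp5g3 at 78.5%. The longest identical run was 21 bases, well under the read length of 75 nt. The 3 genes therefore share no full read with each other, but Atp5g2 does with other loci, as described below.

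The loss of IGF2BP2 in untreated cells was compared first. In M0 macrophages 1 of the 49 genes tested was called lower in KO than in WT and 0 were called higher, against 9.78% of all genes called in either direction. At an unadjusted p under 0.05 there were 4. The median log2 fold change of the 49 genes was −0.04, with 18 above 0, and that of all genes was −0.00. Leaving out 1 library moved it from −0.09 (without the first WT M0 library) to 0.02 (without the third), which turns its sign. Complex III, cytochrome c, complex IV, its assembly factors and the F1 head had 0 called genes each by this test.

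The single called gene was Atp5l, which codes for subunit g in the membrane part of ATP synthase, where it takes part in joining ATP synthase into dimers. Its values were 23.3, 37.1 and 32.4 CPM in WT M0 and 15, 19.5 and 20.2 CPM in KO M0, so that every KO library lay below every WT library. The log2 fold change was −0.75 ± 0.15 (SE, adjusted p = 0.00888, edgeR). After IL-4, WT libraries stood at 26.7, 28.8 and 24.9 CPM while KO libraries stood at 23.3, 20.6 and 20.6 CPM, with a log2 fold change of −0.32 ± 0.15 that was not called (adjusted p = 0.259, edgeR) and whose sign turned when the copies described next were added (0.19 ± 0.08, adjusted p = 0.231, edgeR).

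Atp5l shares reads with other loci. Its coding sequence is identical over all 309 aligned bases to the processed pseudogene Gm10221 on chromosome 5 (GRCm38, chr5:24581554-24581862, minus strand), and 50% of the 75-base stretches of Atp5l also occur in that copy. Atp5l lies on chromosome 9 (chr9:44912557-44920742, minus strand). The authors' model gave it a posterior SD of 9.79% of its count, the highest among the 49 genes. The first 120 coding bases are shown for both loci because a read that lies within this stretch fits both.
Atp5l: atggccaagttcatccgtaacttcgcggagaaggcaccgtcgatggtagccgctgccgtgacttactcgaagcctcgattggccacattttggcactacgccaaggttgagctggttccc
Gm10221: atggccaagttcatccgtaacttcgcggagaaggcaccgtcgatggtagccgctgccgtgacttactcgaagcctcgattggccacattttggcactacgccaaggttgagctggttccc

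The copy was listed at the higher level. Gm10221 was at 104, 104 and 124 CPM in WT M0 and at 114, 119 and 122 CPM in KO M0, and Atp5l held only 11.7% to 26.3% of their sum across the 12 libraries. Summed over Atp5l and its copies, the values were 127, 141 and 157 CPM in WT M0 and 129, 138 and 142 CPM in KO M0. These groups overlapped, and the log2 fold change of the sum was −0.05 ± 0.08 (adjusted p = 0.746, edgeR). With members summed with their copies, an alternative chosen after the data were seen, 0 of the 49 genes were called in M0.

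Atp5g2 shares all of its reads. The files list it with a length of 441 nt, which is its coding sequence alone, and 100% of its 75-base stretches also occur in Gm10175 on chromosome 7 and in Gm10231 on chromosome 17. Its first 120 coding bases are identical in all 3 loci and are printed once.
Atp5g2: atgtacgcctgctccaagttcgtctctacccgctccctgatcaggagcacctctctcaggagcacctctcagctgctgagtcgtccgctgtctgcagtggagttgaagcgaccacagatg

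The copies moved in opposite directions. Gm10175 was listed at 54.1, 51.9 and 44.6 CPM in WT M0 and at 72, 65.9 and 69.9 CPM in KO M0, a log2 fold change of 0.46 ± 0.10 (adjusted p = 0.0116, edgeR). Gm10231 was listed at 27.8, 29 and 44.3 CPM in WT M0 and at 14.1, 16.2 and 17.2 CPM in KO M0, a log2 fold change of −1.08 ± 0.20 (adjusted p = 0.00619, edgeR). The sum of Atp5g2 and both copies did not separate, at 120.2, 121 and 134 CPM in WT M0 and 124, 119 and 123 CPM in KO M0 (log2 fold change −0.03 ± 0.07, adjusted p = 0.81, edgeR). With the copies added, Atp5g2 accounted for 29.7% to 30.8% of the Atp5g counts in the group means, in place of 11.5% to 12.8% without them.

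**Figure D2:**
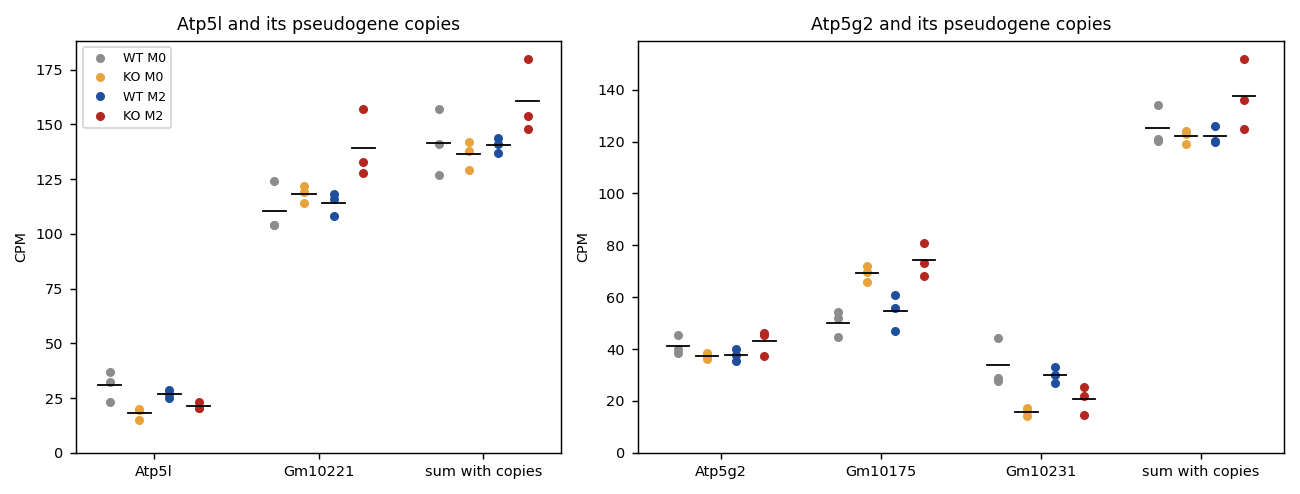
CPM of Atp5l and Atp5g2, of their near-identical copies and of the sum, with 1 point per library and 4 groups of 3 libraries. Atp5l is lower in KO M0 than in WT M0 while the sum with its copy overlaps, and the copies of Atp5g2 shift in opposite directions while their sum stays near 119 to 152 CPM.

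Cycs and Cox16 also share reads with other loci. The coding sequence of Cycs is identical at 318 of 318 bases to Gm10053, and 23.9% of its 75-base stretches occur there. Cox16, an assembly factor that acts on subunit 2 of complex IV, overlaps the readthrough gene Gm20498, which holds 52.8% of its stretches and was listed at 31.7% of its count on average. The posterior SD exceeded 1% of the count in 5 of the 49 genes, namely Atp5l, Atp5g2, Cox16, Cycs and Cox7c. Several members overlap a gene on the other strand, which holds 75.7% of the stretches of Cox20, 40.2% of Cox11, 23.8% of Atp5o, 21.7% of Cox5a and 17% of Uqcrc2. The library kit kept strand, but whether counting used it is not given in the sources used here, so these counts may include antisense reads.

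In IL-4-treated cells 0 of the 49 genes were called between KO and WT in either direction by edgeR, against 2.68% of all genes. At an unadjusted p under 0.05 there were 8, DESeq2 called 1, against 6.09% of all genes, and limma 0. The median log2 fold change was 0.05 and 34 of 49 genes were above 0, while the median of all genes was −0.00. Without the first KO M2 library the median was 0.01, and without the second 0.09. Levels of the complexes moved within their spread. Complex III summed to 2017 ± 72.8 TPM in WT M2 and 2077 ± 125 TPM in KO M2, complex IV to 4265 ± 61.7 and 4372 ± 239.8 TPM, and ATP synthase to 6486 ± 78 and 6599 ± 293 TPM.

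The genes nearest to the threshold in M2 were Cox14 and Atp5d. Cox14, a small membrane protein that controls the translation and assembly of subunit 1, was at 20, 19.6 and 20.4 CPM in WT M2 and 27.9, 22.7 and 23.4 CPM in KO M2. The groups did not overlap, but the difference of 0.30 ± 0.09 on the log2 scale was not called (unadjusted p = 0.00566, adjusted p = 0.0958, edgeR). Atp5d was at 97.2, 97.9 and 114 CPM in WT M2 and 139, 119.9 and 121 CPM in KO M2, again without overlap, a difference of 0.30 ± 0.09 (adjusted p = 0.102, edgeR). DESeq2, run as an alternative, called Atp5d (adjusted p = 0.0366).

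Other members stood further from the threshold in M2. Cox16 was at 20.3, 19.7 and 23.7 CPM in WT M2 and 27.2, 21.9 and 25.2 CPM in KO M2, and these groups overlapped (log2 fold change 0.22 ± 0.10, adjusted p = 0.262, edgeR). Cycs had the opposite sign, with 102, 114 and 108 CPM in WT M2 and 102, 84.8 and 97.4 CPM in KO M2 (−0.19 ± 0.07, adjusted p = 0.173, edgeR). Its copy Gm10053 alone gave 0.16 (adjusted p = 0.164, edgeR), and Cycs summed with it gave −0.05 ± 0.06 (adjusted p = 0.666, edgeR). The first KO M2 library held the highest value of the 12 for Cox14, Cox16 and Atp5d.

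**Figure D3:**
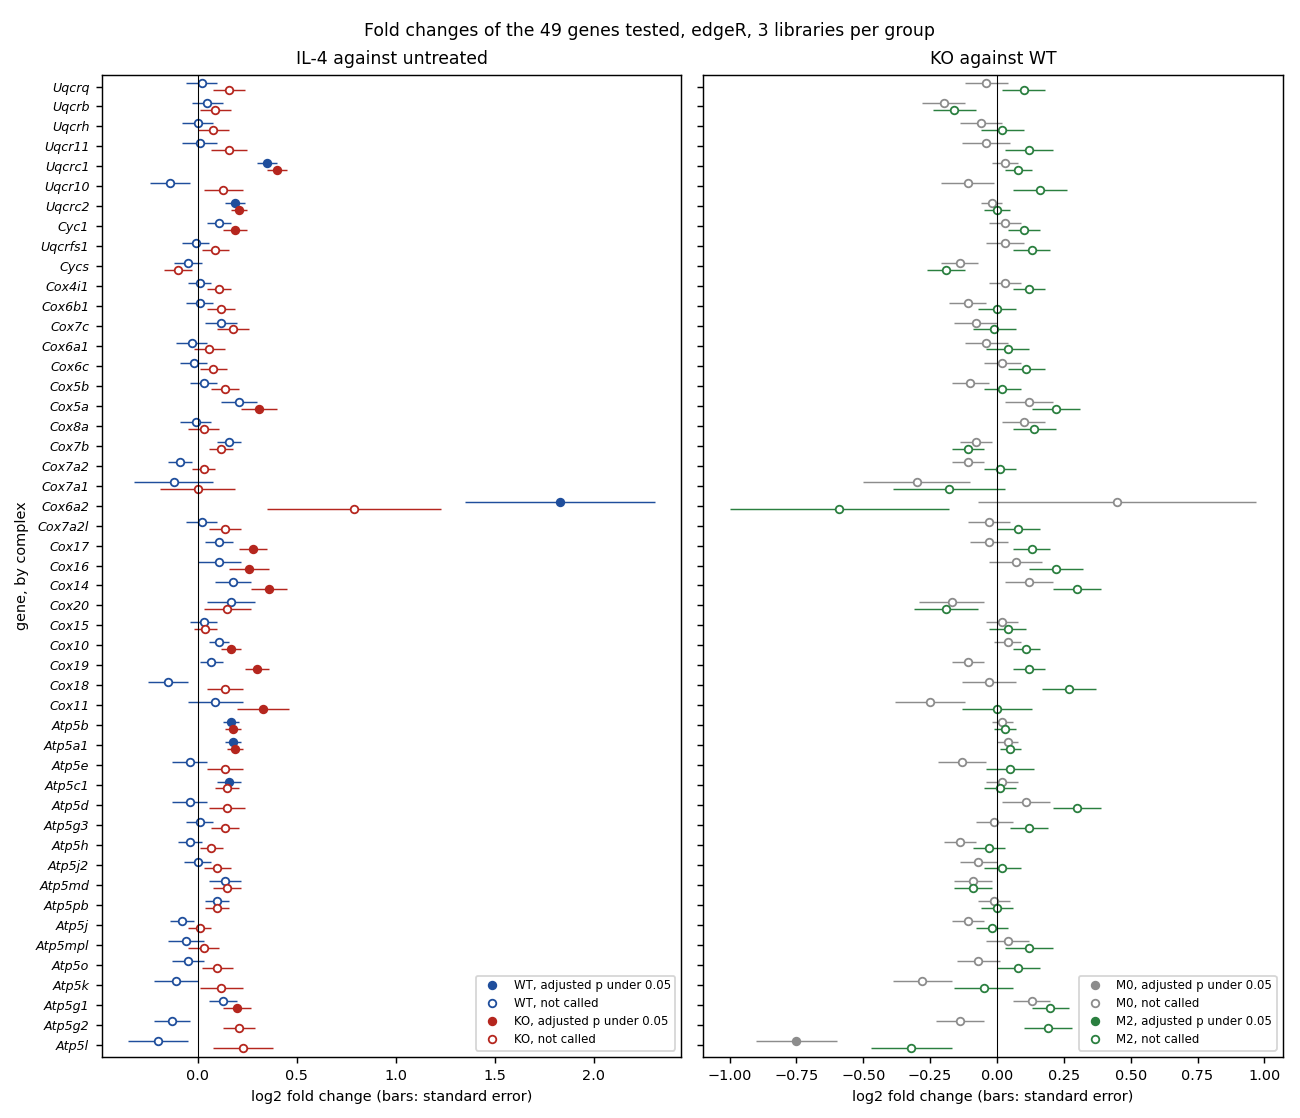
Log2 fold change (x axis) of each of the 49 genes tested, ordered by role, with bars for 1 SE, for KO against WT in M0 and M2 and for IL-4 against untreated in WT and KO. Filled points are called. Between genotypes only Atp5l in M0 is filled, at −0.75, Cox6a2 has the widest bars in both panels, and after IL-4 the KO points have a median of 0.14 and the WT points a median of 0.02.

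IL-4 was then compared with no treatment within each genotype. In WT cells 6 of 49 genes were called higher and 0 lower, against 24.9% of all genes called higher and 25.1% called lower. One of these 6, Cox6a2, passed the filter on low counts through the IL-4 libraries only, and 5 remain without it. In KO cells 13 of 49 rose and 0 fell, against 26.8% higher and 26% lower. The share that rose in KO cells is near the background and that in WT cells is below it. No member was called lower by this test in either genotype with all libraries. Without the first WT M0 library, edgeR called Atp5l lower in WT cells (−0.37, adjusted p = 0.0188). DESeq2 called 6 and 12 genes higher and 0 lower, against 21.5% and 22% of all genes called higher. Without the first KO M2 library, Cyc1, Cox5a, Cox11, Cox16 and Atp5g1 lost the call in KO cells and 8 calls were made, against 24.5% of all genes, and without the second KO M2 library 20 were made, against 24.6%. Of the called genes, 4 were called in both genotypes, 2 in WT only and 9 in KO only. The median log2 fold change was 0.02 in WT and 0.14 in KO cells, against −0.01 and 0.01 over all genes, and 31 and 48 of the 49 genes were above 0. The WT median turned to −0.03 without the first WT M0 library and was 0.08 without the third. The KO median was 0.08 without the first KO M2 library and 0.20 without the second.

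With another scale and another test together, fewer genes were called higher. By limma on log2(TPM + 1), 3 genes were called higher and 5 lower in WT cells, against 17.7% and 26.7% of all genes by the same test, the lower ones being Uqcr10, Cox7a2, Cox18, Atp5j and Atp5g2, with log2 fold changes on that scale between −0.11 and −0.35. The parts of the scale and of the test were not separated. In KO cells the same test gave 6 higher and 1 lower, against 17.8% and 27.7% of all genes, the latter being Cycs at −0.17 (adjusted p = 0.0494, limma). The median on this scale was −0.03 in WT and 0.05 in KO cells for the members, and −0.05 and −0.06 for all genes. With the library number as a block, 9 genes rose in WT cells and 17 in KO cells by edgeR, against 27.3% and 29.4% of all genes. The block added Cyc1, Cox5a and Cox7b in WT cells, and Atp5c1, Atp5d, Atp5g2 and Atp5g3 in KO cells.

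In complex III, 2 of the 9 subunit genes rose in WT and 3 in KO cells, shares near the 24.9% and 26.8% of all genes, with medians of 0.02 and 0.16. Uqcrc1, a core protein of the matrix arm, had values of 172, 179 and 182 CPM in WT M0 and 230.3, 225 and 226 CPM in WT M2. In KO cells it went from 184, 181 and 178 CPM to 260.3, 230.0 and 228 CPM. No treated library overlapped an untreated one, and the log2 fold changes were 0.35 ± 0.05 in WT (adjusted p = 0.000105, edgeR) and 0.40 ± 0.05 in KO (adjusted p = 2.85e-05, edgeR).

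Uqcrc2, the other core protein, rose from 126, 125 and 115 CPM to 142, 139.6 and 135 CPM in WT and from 118, 121 and 123 CPM to 142, 137 and 139 CPM in KO. This was 0.19 ± 0.05 (adjusted p = 0.00405, edgeR) and 0.21 ± 0.04 (adjusted p = 0.00165, edgeR) on the log2 scale. In TPM the WT groups overlapped, at 159, 150.1 and 154 untreated and 163, 149.9 and 185 with IL-4, and limma on log2(TPM + 1) called Uqcrc2 in neither genotype (0.10, adjusted p = 0.275 in WT, and 0.14, adjusted p = 0.149 in KO). The same limma test called Uqcrc1 in both genotypes. Cyc1, the haem-bearing cytochrome c1, rose by 0.19 ± 0.06 in KO cells (adjusted p = 0.0184, edgeR), from 99.3, 93.3 and 89.6 CPM to 117, 102 and 102 CPM. By limma on log2(TPM + 1) it was not called in KO cells (0.10, adjusted p = 0.117). In WT cells Cyc1 gave 0.11 by edgeR and was not called without the block (adjusted p = 0.144, edgeR). The other 6 subunits, Uqcrb, Uqcrfs1, Uqcrh, Uqcrq, Uqcr10 and Uqcr11, were not called in either genotype by this test.

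In complex IV, 1 of the 12 subunit genes tested was called in each genotype with all libraries and no block, Cox6a2 in WT and Cox5a in KO cells, against 24.9% and 26.8% of all genes. Without the second KO M2 library edgeR also called Cox5b (0.20, adjusted p = 0.0348), Cox6b1 (0.19, adjusted p = 0.0255), Cox7b (0.18, adjusted p = 0.0402) and Cox7c (0.26, adjusted p = 0.0129) in KO cells. Cox5a, a subunit on the matrix side, went from 118, 118 and 119.7 CPM in KO M0 to 163, 132 and 145 CPM in KO M2 (0.31 ± 0.09, adjusted p = 0.0128, edgeR). In WT cells it went from 96.7, 106 and 126 CPM to 122, 121 and 135 CPM, with overlap (0.21, adjusted p = 0.0835, edgeR, or 0.0161 with the block). Cox7b, a small membrane subunit, was called in WT cells with the block (0.16, adjusted p = 0.0434) and without the third WT M0 library (0.22, adjusted p = 0.00802). Cox4i1, the most abundant subunit RNA, was at 281, 299.9 and 318 CPM in WT M0 and 313, 301 and 293 CPM in WT M2, and it was not called in either genotype.

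Cox6a2 had 9, 1 and 5 counts in WT M0, 13, 11 and 14 counts in WT M2, 6, 7 and 11 counts in KO M0 and 13, 17 and 12 counts in KO M2. The IL-4 libraries held more counts than the untreated ones in both genotypes, but the gene passed the filter only because of them, so its call in WT cells carries no weight. A filter at 1 CPM in 6 libraries removes it.

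Of the 9 complex IV assembly factors 6 rose in KO cells, the most of any role, against 26.8% of all genes. In WT cells 0 were called by edgeR with all libraries, against 24.9%, and 1 had an unadjusted p under 0.05. Without the first KO M2 library the calls on Cox11 and Cox16 were lost, and with limma on log2(TPM + 1) Cox14 and Cox17 kept theirs. Their median log2 fold change was 0.26 in KO and 0.11 in WT cells. Cox19, a copper-handling protein of the intermembrane space, went from 17.7, 19 and 18.3 CPM to 23.1, 21.9 and 23 CPM in KO cells, without overlap (0.30 ± 0.06, adjusted p = 0.000777, edgeR). In WT cells it went from 19.1, 19 and 21.3 CPM to 20.3, 21.5 and 20.7 CPM, with overlap (0.07, adjusted p = 0.342, edgeR). In TPM the KO libraries overlapped, at 15.8 to 18.5 untreated and 16.7 to 20.6 with IL-4, and limma on log2(TPM + 1) gave 0.17 ± 0.09 (adjusted p = 0.152). The difference between the responses in the edgeR test, 0.23 ± 0.08, was not called (unadjusted p = 0.0184, adjusted p = 0.175, edgeR).

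Cox14 rose in KO cells from 19.9, 18.2 and 19.5 CPM to 27.9, 22.7 and 23.4 CPM (0.36 ± 0.09, adjusted p = 0.00371, edgeR). In WT cells it went from 16.4, 16.8 and 19.8 CPM to 20, 19.6 and 20.4 CPM and was not called with all libraries (0.18, adjusted p = 0.119, edgeR). Without the third WT M0 library, Cox14 was called higher in WT cells as well (0.27, adjusted p = 0.025, edgeR). Cox17, which hands copper to the factors that load it into subunits 1 and 2, rose in KO cells from 45.3, 44.9 and 47.3 CPM to 61.2, 49.2 and 56.4 CPM (0.28 ± 0.07, adjusted p = 0.00574, edgeR). In WT cells the value was 0.11 (adjusted p = 0.222, edgeR).

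Cox10, which makes haem O on the way to the haem A of complex IV, showed small changes in CPM that were not seen in TPM. It rose in KO cells from 32.4, 31.5 and 30.2 CPM to 35.7, 35 and 35.2 CPM (0.17 ± 0.05, adjusted p = 0.00669, edgeR). In WT cells it went from 29.9, 31.4 and 30.1 CPM to 33.3, 32.1 and 33 CPM (0.11, adjusted p = 0.0787, edgeR). In CPM the treated libraries lay above the untreated ones in both genotypes. In TPM the KO values were 22.1, 21.9 and 20 untreated and 22.3, 22.4 and 21.4 with IL-4, with overlap, and limma on log2(TPM + 1) gave 0.04 (adjusted p = 0.606).

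Cox16 and Cox11 were close to the threshold in KO cells. Cox16 rose by 0.26 ± 0.10 (adjusted p = 0.0456, edgeR), from 19.5, 21.3 and 21 CPM to 27.2, 21.9 and 25.2 CPM. Cox11 rose by 0.33 ± 0.13 (adjusted p = 0.0484, edgeR), from 7.6, 7.85 and 7.05 CPM to 11.2, 8.85 and 8.48 CPM. Cox15, Cox18 and Cox20 were not called in either genotype by edgeR, and limma on log2(TPM + 1) called Cox18 lower in WT cells (−0.35, adjusted p = 0.0193).

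**Figure D4:**
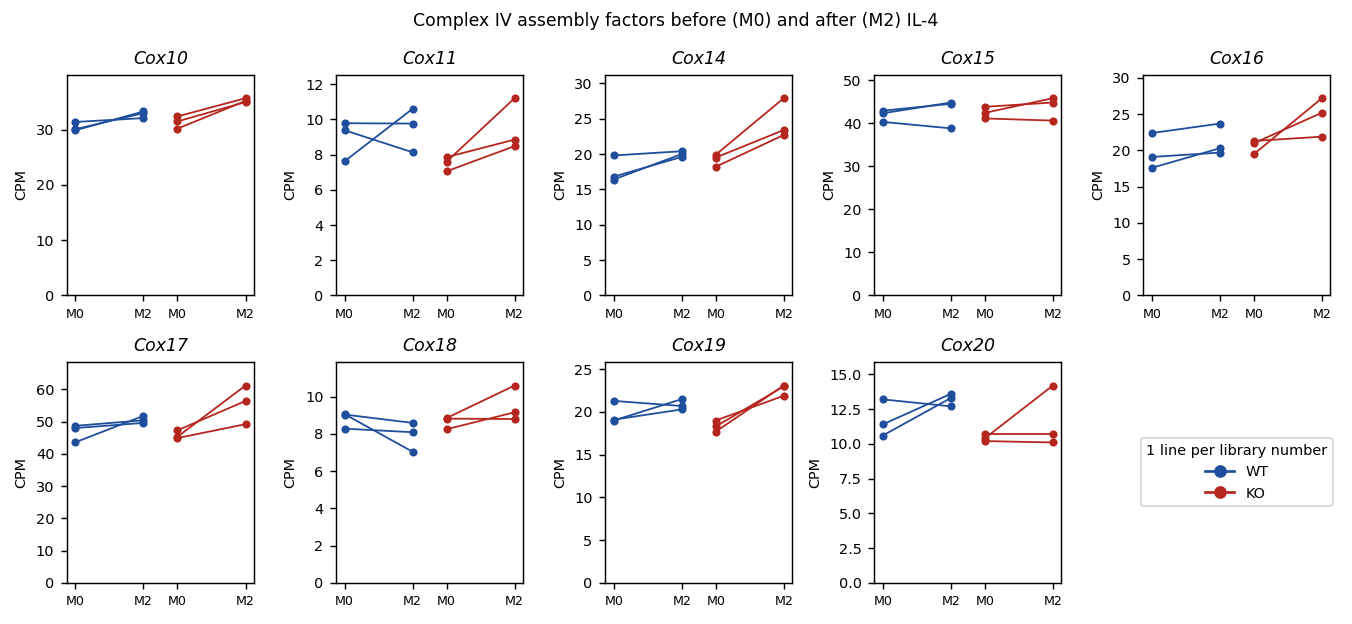
CPM of each of the 9 complex IV assembly factors (y axis, from 0) before (M0) and after IL-4 (M2), with 1 line per library number, for WT and KO cells. In KO cells the lines of Cox10, Cox11, Cox14, Cox16, Cox17 and Cox19 rise in all 3 pairs. In WT cells those of Cox10, Cox14, Cox16 and Cox17 do so as well. The highest KO M2 value of Cox14 is 27.9 CPM, and the KO lines of Cox15 stay near 40.6 to 45.8 CPM.

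In the F1 head of ATP synthase 3 of 5 genes rose in WT and 2 in KO cells, against 24.9% and 26.8% of all genes, with medians of 0.16 and 0.15. Atp5b went from 912, 950.5 and 944 CPM to 1035, 1065 and 1059 CPM in WT and from 948, 962 and 939 CPM to 1115, 1052 and 1059.5 CPM in KO. It rose by 0.17 ± 0.04 (adjusted p = 0.0028, edgeR) and by 0.18 ± 0.04 (adjusted p = 0.00179, edgeR). By limma on log2(TPM + 1) the differences were smaller, at 0.08 ± 0.03 in WT, which was not called (adjusted p = 0.0753), and 0.12 ± 0.03 in KO (adjusted p = 0.0144).

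Atp5a1, the alpha subunit, went from 686, 699.9 and 713 CPM to 778, 794 and 799.8 CPM in WT and from 725, 715 and 717 CPM to 842, 801 and 809 CPM in KO. Its log2 fold changes were 0.18 ± 0.04 (adjusted p = 0.00177, edgeR) and 0.19 ± 0.04 (adjusted p = 0.00113, edgeR). On log2(TPM + 1), limma gave 0.11 (adjusted p = 0.0105) and 0.10 (adjusted p = 0.016). For Atp5b and Atp5a1 no treated library overlapped an untreated one in CPM. Atp5c1, the gamma subunit that turns within the head, rose in WT cells by 0.16 ± 0.06 (adjusted p = 0.0421, edgeR), from 160.0, 154 and 172 CPM to 171, 184 and 189 CPM, and was not called there by limma on log2(TPM + 1) (0.10, adjusted p = 0.103). In KO cells the value was 0.15 ± 0.06 and missed the threshold (adjusted p = 0.051, edgeR), or passed it with the block (adjusted p = 0.0187). Atp5d and Atp5e, for the delta and epsilon subunits of the central stalk, were not called in either genotype without the block.

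In the stalk and membrane part 0 of 12 genes rose in WT cells and 1 rose in KO cells, against 24.9% and 26.8% of all genes, with medians of −0.05 and 0.11. The gene called was Atp5g1, which went from 82.2, 78.9 and 82.9 CPM to 105, 86.2 and 89.4 CPM (0.20 ± 0.07, adjusted p = 0.0254, edgeR). In WT cells it was at 72.1, 72.2 and 79.5 CPM and then at 80.3, 80.8 and 83.3 CPM, and was not called. The KO call was lost without the first KO M2 library (0.11) and by limma on log2(TPM + 1) (0.11, adjusted p = 0.0853). Atp5g3 was at 194, 203 and 223 CPM in WT M0 and 203, 203 and 218 CPM in WT M2. In KO cells it was at 211, 203 and 201 CPM and then at 254, 209.5 and 215 CPM, and it was not called without the block. Summed with their copies, Atp5l changed by 0.23 ± 0.08 in KO cells (adjusted p = 0.029, edgeR) and Atp5g2 by 0.17 ± 0.07 (adjusted p = 0.0451, edgeR), while neither gene alone was called with all libraries by edgeR without the block. Atp5g2 alone was called with the block (0.21, adjusted p = 0.0149) and without the second KO M2 library (0.30, adjusted p = 0.00534).

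Whether the response to IL-4 differed between genotypes was tested directly. Of the 49 genes 0 were called in either direction by edgeR, against 3.24% of all genes. DESeq2 and limma also called 0, and 2 had an unadjusted p under 0.05. The median difference, KO minus WT, was 0.09 on the log2 scale and 44 of 49 genes were above 0, where all genes had a median of 0.01 and 51.3% above 0. Complex I subunits had a median of 0.10 with 34 of 37 genes above 0, and mitochondrial ribosomal proteins had 0.10 with 68 of 77, so these complexes did not stand apart in this. By role, the median was largest for the assembly factors, at 0.16. Without the first KO M2 library the median over the members was 0.04, and without the third WT M0 library it was also 0.04. The larger number of rises in KO than in WT cells is thus not shown, gene by gene, to be a difference between the genotypes.

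The gene with the smallest unadjusted p in this test was Atp5g2. It was at 38.3, 39.9 and 45.3 CPM in WT M0 and 35.2, 37.6 and 40.1 CPM in WT M2. In KO cells it was at 38.4, 37 and 36.2 CPM untreated and 46.2, 37.5 and 45.5 CPM with IL-4. The difference of the responses was 0.34 ± 0.12 (adjusted p = 0.163, edgeR), or 0.33 with the block (adjusted p = 0.0495). Summed with its copies, the difference was 0.21 ± 0.09 (adjusted p = 0.282, edgeR).

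The promoters of the members were searched for 3 motifs of factors known to drive respiratory genes, in 300-base windows from RefSeq (GRCm38.p6) that start 250 bases before a gene's start, on both strands. A promoter was listed for 41 of the 54 genes, 45 promoters in all. The NRF1 motif GCGCANGCG was present in 24.4% of them, against 6.25% of all 32851 promoters. The core CCGGAAG, bound by GABP and other ETS factors, was present in 37.8%, against 8.86%. The YY1 motif AAGATGGCG was present in 6.67%, against 1.4%. The ETS core and the YY1 motif can share the letters AAG, and a match is a description of the sequence only.

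Of the 6 assembly factors that rose in KO cells, Cox10, Cox14 and Cox16 held the ETS core, and Cox11 and Cox19 held none of the 3 motifs. Cox17 had no entry. The core was also held by Cox15 and Cox20, which were not called in either genotype by edgeR. The last 150 bases before the start are shown for Cox10 and Cox16 as examples, with the core in capitals (written CTTCCGG on the other strand). The window of Cox10 is chr11:64079423-64079722 (minus strand), and that of the upstream start of Cox16 is chr12:81485088-81485387 (minus strand).
Cox10: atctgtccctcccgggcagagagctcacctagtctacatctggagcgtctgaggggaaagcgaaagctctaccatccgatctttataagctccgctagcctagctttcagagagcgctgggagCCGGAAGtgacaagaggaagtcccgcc
Cox16: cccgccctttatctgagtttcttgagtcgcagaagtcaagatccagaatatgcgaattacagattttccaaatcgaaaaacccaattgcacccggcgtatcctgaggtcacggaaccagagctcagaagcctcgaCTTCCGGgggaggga

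The regulators that use such motifs were measured in the same libraries, as part of a list of 11 tested regulators of respiratory genes. Between genotypes 0 of the 11 were called in M0 or M2 by edgeR, against 9.78% and 2.68% of all genes, with 2 at an unadjusted p under 0.05 in each. With IL-4, 4 rose and 2 fell in each genotype, against 24.9% higher and 25.1% lower over all genes in WT and 26.8% and 26% in KO. Ppargc1b, which codes for the coactivator PGC-1beta, rose from 3.12 ± 0.506 to 6.86 ± 1.1 CPM in WT (1.13 ± 0.17, adjusted p = 0.000134, edgeR) and from 2.86 ± 0.509 to 6.08 ± 0.674 CPM in KO (1.09 ± 0.17, adjusted p = 0.000132, edgeR). Gabpa, the DNA-binding subunit of GABP, fell from 58 ± 2.12 to 47.5 ± 2.15 CPM in WT and from 56.5 ± 2.82 to 43.6 ± 2.84 CPM in KO, by 0.29 (adjusted p = 0.00166) and 0.37 (adjusted p = 0.000176) on the log2 scale.

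Other genes of the same pathway were counted list by list, beside 24.9% of all genes called higher and 25.1% lower with IL-4 in WT, and 26.8% and 26% in KO. In complex I, 37 subunit genes were tested, of which 0 were called between genotypes in M0 or in M2 by edgeR (2 and 7 at an unadjusted p under 0.05), against 9.78% and 2.68% of all genes, 5 rose and 1 fell with IL-4 in WT and 14 rose in KO. Complex II and its assembly factors, 8 genes, had 0 edgeR calls in WT (3 at an unadjusted p under 0.05) and 3 higher and 1 lower in KO. Of 7 genes for complex III assembly and haem attachment, 0 were called in WT (2 at an unadjusted p under 0.05, edgeR) and 3 rose in KO, namely Bcs1l, Uqcc1 and Uqcc3. Among 7 genes for ATP synthase assembly, its inhibitor and the carriers for phosphate and adenine nucleotides, Slc25a3 and Slc25a5 rose and Atpif1 fell in WT, and Tmem70, Slc25a3 and Slc25a5 rose in KO.

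Complex IV assembly factors with other names formed a list of 21 genes. In M0 2 of them were called, a share near the 9.78% of all genes. Sco1, a copper chaperone for subunit 2, was lower in KO, with 14.8 ± 0.581 CPM in WT and 12.5 ± 0.24 CPM in KO (−0.24 ± 0.06, adjusted p = 0.0354, edgeR). Taco1, a translational activator of subunit 1, was lower as well, with 10.5 ± 0.199 and 8.17 ± 0.462 CPM (−0.36 ± 0.08, adjusted p = 0.0128, edgeR). In M2 1 of the 21 was called, against 2.68% of all genes. Smim20, which stabilises newly made subunit 1, was higher in KO, with 20 ± 1.98 CPM in WT and 24.6 ± 0.761 CPM in KO (0.30 ± 0.07, adjusted p = 0.0462, edgeR).

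With IL-4, 6 of the 21 rose and 1 fell in WT, and 9 rose and 1 fell in KO, against 24.9% higher and 25.1% lower in WT and 26.8% and 26% in KO over all genes. The difference of the IL-4 responses was called for 1 of the 21, against 3.24% of all genes. It was Sco2, another copper chaperone, at 0.40 ± 0.09 (adjusted p = 0.0333, edgeR). In the list of 77 mitochondrial ribosomal proteins, Mrpl47, Mrpl49 and Mrpl50 were called lower in KO in M0, against 9.78% of all genes called in either direction, and Mrps34 higher in KO in M2, against 2.68%. With IL-4, 21 of these rose and 4 fell in WT, and 44 rose and 4 fell in KO, beside the same shares over all genes.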

How the data were processed

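Poly(A) RNA of 12 libraries was sequenced as single 75 nt reads, after selection of RNA by integrity. Per the labels, the build was GRCm38 (mm10) and FastQC 0.11.2 and DESeq2 1.40.2 were used, and per the study's methods reads went through the Grape-nf pipeline under Nextflow. GENCODE M10 is named there for a motif analysis; the quantifier, the annotation used for counting and the strand setting are not given in the sources used here. The authors deposited, per library, expected counts (estimated counts that split multi-mapping reads), TPM (scaled by effective length and library total), posterior means and SDs, and transcript lengths. Tables of the authors' own comparisons (fold changes and p-values) were used for symbols only, pairing 21000 genes with one.

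Expected counts were rounded and fitted in edgeR 4.0.16 (R 4.3.3; TMM, filterByExpr by group, quasi-likelihood F test, all 12 libraries with 1 coefficient per group, Benjamini-Hochberg over 12846 genes). SE was taken as the log2 fold change over the root of F. The biological coefficient of variation was 8.08%. Totals were 20011792 to 39632770 counts. Cox7a1, at 27 to 66 counts, had an SE of 0.19 to 0.21 on the log2 scale between 2 groups, where the median over the members was 0.07 to 0.08. DESeq2 1.42.0 and limma 3.58.1 on log2(TPM + 1) and log2(TPM + 0.1), other scalings and filters, a block, leaving out each library and summing near-identical copies were alternatives; the copies were chosen after seeing the data. Scripts were tested on simulated data. Shared stretches were exact 75-mers of GENCODE M21 transcripts, and a copy held at least 10% of a member's.

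Same-numbered untreated and IL-4 libraries deviated together (correlations of 0.331, 0.103 and 0.364 in WT and 0.166, 0.16 and 0.209 in KO), so the number was used as a block there. The members and lists were chosen with earlier results of these data known. Named genes were all members called between genotypes, the highest and lowest of each role, up to 3 risers and 3 fallers per role, the isoform sets, Cox14, Cox16 and Atp5d, and members below the filter. Further members are named with counts or alternatives, chosen after their values were seen.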

Additional observations from a re-analysis of the deposited data

How the results depend on the processing

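Between genotypes in M0, the single call on Atp5l became 2 without the first WT M0 library and 2 with the library number as a block (adding Atp5k both times), and 0 with copies summed. Leaving out any library gave 1 to 2. In M2, 0 calls became 1 with DESeq2, and leaving out any library gave 0. With IL-4 in WT, leaving out a library gave 5 to 9 calls, the most without the third WT M0 library. With IL-4 in KO, 13 calls, all higher, became 7 with limma at either pseudocount, with Cycs called lower among them. Leaving out a library gave 8 (without the first KO M2 library) to 20 (without the second). The test of the difference of responses gave 1 call with the block (Atp5g2) and 0 to 1 when a library was left out (Atp5l at 0.60, adjusted p = 0.0486, without the first WT M0 library). The untreated and IL-4 pairing changed no other call than those named in the report. KO and WT libraries of the same number did not deviate together (correlations −0.0684 to 0.0403), so they share only a number. The block between genotypes, with its call on Atp5k in M0, was therefore run without a pairing behind it.

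Summed as TMM CPM in place of TPM, the change with IL-4 was 9.3% in WT and 16% in KO for complex III, 2.7% and 8.9% for complex IV, 7.1% and 11% for ATP synthase and 6.1% and 11% for all members, where TPM gave 0.034% and 5.8%, −1.4% and 2.8%, −1.6% and 4%, and −1.2% and 4%. For ATP synthase in KO against WT M0, it was −0.5% in CPM and −3.8% in TPM. The cause was not tested. Of 389 alternative values for 26 results on single genes, 337 kept their side of the threshold, 51 lost the call, 1 gained it and 0 were called in the opposite direction. A sign that turned without a call, such as that of Atp5l in M2 with its copies, does not count as a call in the opposite direction. With 3 libraries per group the median SE of 0.07 to 0.11 (log2) limits what could be called.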
